A study of Mus musculus with 18 samples.

Results

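The 10 genes described here are Nodal, Lefty1, Lefty2, Tdgf1, Acvr2b, Smad2, Smad3, Smad4, Smad7 and Skil, which encode parts of the Nodal signalling pathway and its SMAD proteins in mouse embryonic stem cells (ESCs). They were chosen by symbol, with earlier results of these data known, and found by Ensembl identifier among 51467 genes of the count table. All 10 were among the 12851 genes with enough counts to be tested. The 18 libraries came from sucrose gradients of 2 cell lines kept in medium with serum, LIF and the 2i inhibitors, namely wild-type V6.5 ESCs and an ESC line without Dgcr8 that had been made earlier. DGCR8 is needed to process primary microRNAs (miRNAs), so the Dgcr8 KO line lacks canonical miRNAs. Each genotype had 3 gradients, and each gradient gave a monosome, a low polysome (2 to 4 ribosomes) and a high polysome fraction, so that there were 6 groups of 3 libraries. All cells were given 100 ug/ml cycloheximide for 2 minutes before lysis to hold ribosomes on their messages, and lysates were run on gradients of 10 to 50% sucrose. The knockout is represented by 1 line, and no source used here says that the 3 gradients of a genotype came from separate cultures, so p-values measure only the spread between gradients, which may be technical.

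Nodal is a secreted ligand of the TGF-beta family that binds activin receptors together with a co-receptor, Tdgf1 (Cripto). The receptors phosphorylate SMAD2 and SMAD3, which join SMAD4, enter the nucleus and switch on targets that include Nodal itself and its antagonists Lefty1 and Lefty2, so the pathway holds both positive and negative feedback. It is active in ESCs and patterns the early embryo, and the Lefty genes are known targets of the miR-290 and miR-302 families, the ESC-specific cell cycle regulating (ESCC) miRNAs.

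The sequences below are those through which ESCC miRNAs and Lefty messages can pair. Among the mature miRNAs of the miR-290 and miR-302 clusters in the RefSeq table used here (GRCm38.p6), which is not complete, 5 share the seed AAGUGCU, shown here in capitals as bases 2 to 8.
miR-291a-3p: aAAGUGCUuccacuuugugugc
miR-294-3p: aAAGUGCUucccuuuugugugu
miR-295-3p: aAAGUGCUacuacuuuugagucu
miR-302b-3p: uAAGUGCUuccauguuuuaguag
miR-302d-3p: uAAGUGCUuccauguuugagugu

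The 3′ untranslated regions (UTRs) of the 10 genes were searched on the transcript strand for the seed match, as an 8mer (AGCACTTA), a 7mer (AGCACTT or GCACTTA) or a 6mer (GCACTT), each counted once as its longest form. Lefty1 and Lefty2 were the members with an 8mer, which 3.33% of 11768 tested protein-coding genes carried. Their sites are shown with the 8mer in capitals, on the plus strand of GRCm38.
Lefty1, chr1:180938195-180938224: tcactgcactgtatgcgaAGCACTTAcatg
Lefty2, chr1:180897899-180897928: tgtccatcacccagtttaAGCACTTAcatg
The Lefty1 site starts at base 238 of a 425-base 3′ UTR and the Lefty2 site at base 104 of a 1290-base 3′ UTR. Smad2 had 3 matches of the AGCACTT form in its 6233-base 3′ UTR, and an 8mer or 7mer was found in 19.2% of the tested protein-coding genes. Nodal and Smad7 each held a single 6mer and Skil held 2, while no match was found in Tdgf1, Acvr2b, Smad3 and Smad4. A match is a description of the sequence and not evidence of binding.

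Libraries held 1151649 to 4984833 counts, and no member fell below 18 counts in any library. Dgcr8 itself, in counts scaled to library size (CPM), was at 68.4 to 79.6 CPM in wild-type monosomes against 47.3 to 52.03 CPM in KO monosomes, at 51.8 to 70.02 against 39.03 to 58.6 CPM in low polysomes, and at 26.1 to 29.6 against 8.73 to 22.99 CPM in high polysomes. Its 3′ reads were thus lower but not absent in the libraries labelled KO (log2 change -0.56, SE 0.19, adjusted p = 0.0185 in monosomes, log2 change -0.45 with adjusted p = 0.0223 in low and -1.01 with adjusted p = 0.000276 in high polysomes). The genotypes overlapped in low polysomes only. Where the deletion lies relative to the 3′ reads is not given in the sources used here, so this gene is a weak check of the labels. The 10 markers of pluripotent ESCs, among them Tdgf1, summed to 3011 to 5359 CPM per library. In high polysomes these sums were 4837 to 5359 CPM in wild-type and 3011 to 3719 CPM in KO cells, which did not overlap. They overlapped in monosomes (3453 to 3608 against 3485 to 3872 CPM) and in low polysomes (3770 to 3952 against 3620 to 3815 CPM). The difference in these sums was not tested. Of 8 primitive endoderm markers, 3 (Gata6, Sox7 and Cer1) held 3 counts or fewer in every library and the list summed to at most 10.8 CPM. The sums were at most 18.2 CPM for 5 streak and mesoderm markers, at most 16.9 CPM for 5 trophoblast markers and at most 21.5 CPM for 6 feeder fibroblast markers. The 5 formative epiblast markers summed to 117 to 194 CPM, and Fgf5 among them held 3 counts or fewer everywhere. RNA came from whole cultures, so fewer cells with a message and less of it per cell cannot be told apart.

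Levels are given as CPM, the counts of a gene scaled to library size with TMM factors, and the translation level of a gene is its high polysome to monosome ratio, as in the study. Its change between genotypes is the interaction of genotype and fraction in a limma-voom fit on all tested genes, which also gave KO against wild-type within each fraction. Genes were called at an adjusted p under 0.05. These comparisons share libraries, so their values are set side by side and not counted as separate evidence.

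The question asked of each member was whether its level on ribosomes, and its distribution along the gradient, differed without miRNAs. The translation level was called for 6 of the 10 genes, rising in KO cells for Nodal, Lefty1, Lefty2 and Acvr2b and falling for 2 (Tdgf1 and Smad7). Of all genes tested, 28.2% were called and 15.2% fell. In monosomes 3 members were higher (Nodal, Lefty1 and Skil) and 1 was lower (Smad7), where 17.5% of all genes were higher and 19.9% lower. In low polysomes 6 were higher (Nodal, Lefty1, Lefty2, Smad3, Smad4 and Skil) and 1 was lower (Smad7), against 26.1% and 26.2% of all genes. In high polysomes 4 were higher (Nodal, Lefty1, Lefty2 and Acvr2b) and 3 lower (Tdgf1, Smad4 and Smad7), against 29.1% and 31.6%. With an absolute log2 change over 1 required as well, 2 members were called for translation level, 1 for monosomes, 3 for low and 4 for high polysomes, where 15.1%, 18.1%, 25.0% and 33.1% of all genes passed. The 4 calls in monosomes and those in high polysomes are close to the shares of all genes called there. So are the counts with an absolute log2 change over 1, and none of these is a result about the 10 genes. Because the members were chosen with earlier results of these data known, every count set beside a share of all genes is a description only. The median log2 change of the members was 0.30 for translation level and -0.03, 0.54 and 0.22 in the 3 fractions from light to heavy, beside 0.01, -0.05, 0.00 and -0.08 over all genes.

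**Figure D1:**
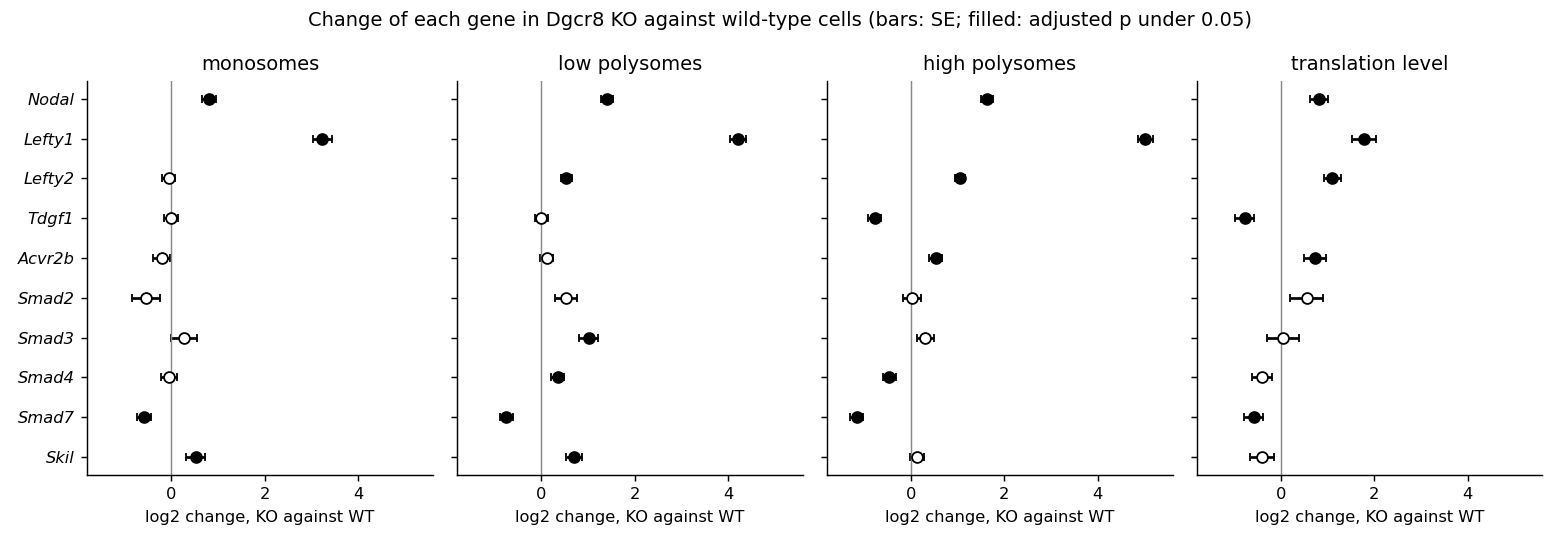
Each panel shows the log2 change of the 10 genes in Dgcr8 KO against wild-type cells, in monosomes, low polysomes, high polysomes and in translation level; points are limma estimates, bars their SE, and filled points have an adjusted p under 0.05. Lefty1 lies far to the right in all 4 panels (3.23, 4.21, 5.02 and 1.78), Smad7 lies left of 0 in all 4, and Lefty2 and Tdgf1 sit near 0 in monosomes but apart from it in high polysomes.

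Nodal (ENSMUSG00000037171, chromosome 10, 61417972 to 61425338, plus strand) encodes the ligand. It stood in wild-type gradients at 151, 114 and 96.4 CPM in monosomes, 201, 139 and 155 CPM in low polysomes and 239.9, 221 and 248 CPM in high polysomes. It stood in Dgcr8 KO gradients at 221, 192 and 215 CPM in monosomes, 445, 370.4 and 492 CPM in low polysomes and 666, 796 and 723 CPM in high polysomes. In each fraction the 3 KO libraries lay above the 3 wild-type libraries. The estimated change was larger in the heavier fractions, but the step from low to high polysomes was not called (0.21, SE 0.19, adjusted p = 0.494). Nodal was 1.74-fold higher in KO monosomes (log2 change 0.80, SE 0.15, adjusted p = 5.54e-05), 2.67-fold higher in low polysomes (log2 change 1.42, SE 0.13, adjusted p = 7.12e-12) and 3.08-fold higher in high polysomes (log2 change 1.62, SE 0.13, adjusted p = 6.57e-14). The log2 ratio of high polysomes to monosomes was 0.67, 0.94 and 1.36 in the wild-type gradients and 1.59, 2.05 and 1.74 in the KO gradients, which did not overlap, and the translation level rose (log2 change 0.82, SE 0.20, adjusted p = 0.00165). This call was lost when libraries were scaled by total counts, where it was 0.49 (adjusted p = 0.0513).

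**Figure D2:**
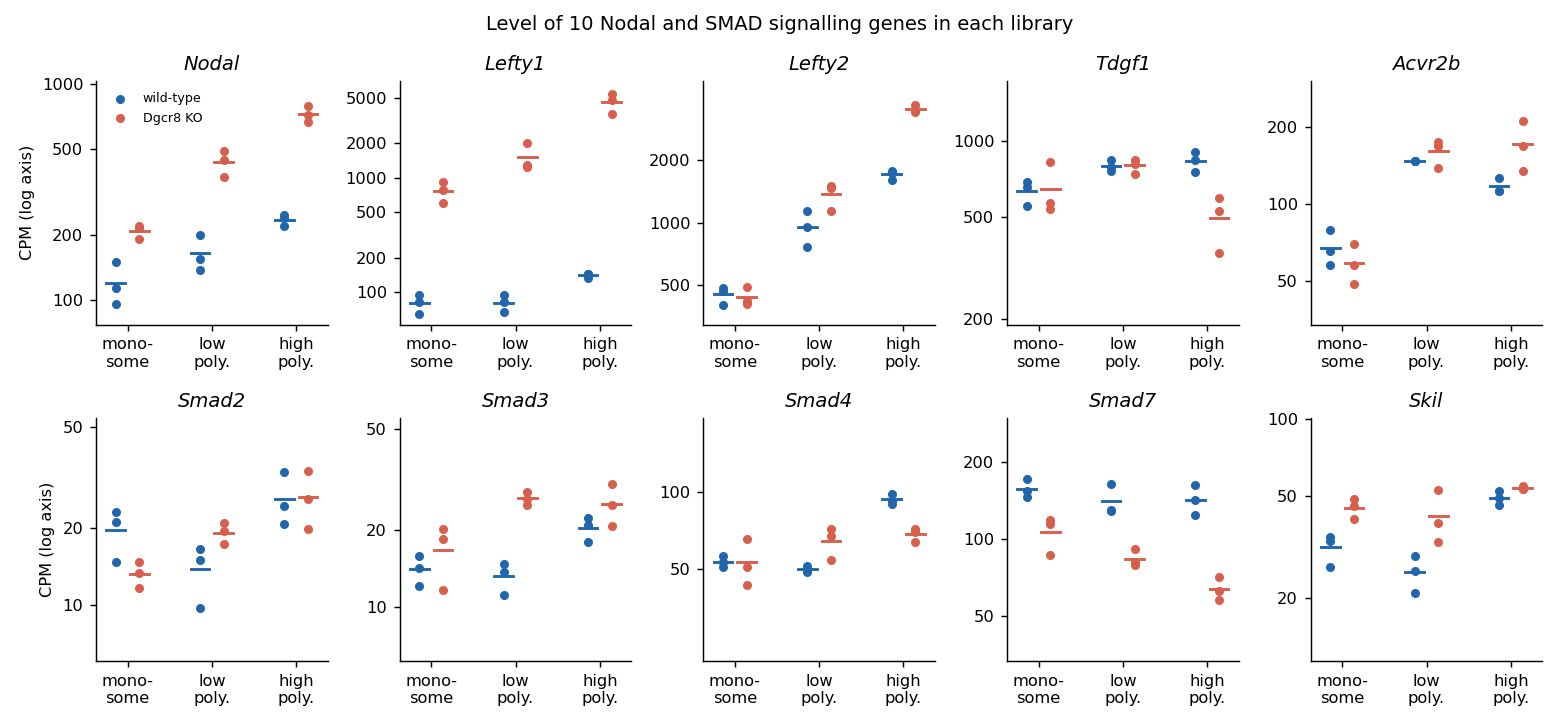
Each panel shows 1 gene and each point 1 library, as CPM on a log axis by fraction, with wild-type in blue, Dgcr8 KO in red and lines at the means of 3 libraries. Nodal and Lefty1 are above wild-type in all 3 fractions of KO cells and Smad7 is below it, whereas Lefty2, Tdgf1 and Acvr2b overlap in monosomes and are apart in high polysomes.

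Lefty1 (ENSMUSG00000038793, chromosome 1, 180935022 to 180938400, plus strand) encodes a secreted antagonist that binds Nodal and its co-receptor. Its libraries stood in wild-type gradients at 81.7, 93.6 and 64.5 CPM in monosomes, 94.5, 80.9 and 66.8 CPM in low polysomes and 143, 145 and 132 CPM in high polysomes. They stood in Dgcr8 KO gradients at 606, 774 and 914 CPM in monosomes, 1228, 1292 and 2024 CPM in low polysomes and 3575, 4819 and 5389 CPM in high polysomes. The lowest KO value of any fraction was thus above the highest wild-type value of any fraction. Lefty1 was 9.41-fold higher in KO monosomes (log2 change 3.23, SE 0.20, adjusted p = 2.98e-16) and 18.5-fold higher in low polysomes (log2 change 4.21, SE 0.17, adjusted p = 1.10e-22). In high polysomes it was 32.4-fold higher (log2 change 5.02, SE 0.16, adjusted p = 1.06e-25), which placed it at rank 9 of 12851 genes by increase. The rise was therefore already large in monosomes and grew along the gradient. Per gradient, the log2 translation level was 0.80, 0.63 and 1.02 in wild-type and 2.56, 2.64 and 2.56 in KO cells, a rise of 1.78 (SE 0.25, adjusted p = 8.81e-07). Among the 392 tested genes with an 8mer seed match, whose median translation level change was 0.22 against 0.00 for tested protein-coding genes, Lefty1 ranked 15, and by its change in each of the 3 fractions it ranked 4.

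Lefty2 (ENSMUSG00000066652, chromosome 1, 180893108 to 180899103, plus strand) encodes the other Lefty antagonist and lies near Lefty1 on the same chromosome. It was found in wild-type gradients at 486, 469 and 402 CPM in monosomes, 1137, 949 and 761 CPM in low polysomes and 1747, 1612 and 1769 CPM in high polysomes. It was found in Dgcr8 KO gradients at 488, 419 and 405 CPM in monosomes, 1504, 1142 and 1472 CPM in low polysomes and 3479, 3716 and 3436 CPM in high polysomes. The monosome values of the genotypes overlapped and the log2 change there was -0.06 (SE 0.13, adjusted p = 0.771). In the polysomes the groups did not overlap: Lefty2 was 1.46-fold higher in low polysomes (log2 change 0.54, SE 0.12, adjusted p = 0.000184) and 2.07-fold higher in high polysomes (log2 change 1.05, SE 0.11, adjusted p = 2.41e-10). The translation level by gradient was 1.84, 1.78 and 2.13 in wild-type and 2.83, 3.15 and 3.08 in KO cells on the log2 scale (log2 change 1.11, SE 0.18, adjusted p = 5.37e-06 for the difference). Among the genes with an 8mer, Lefty2 ranked 56 of 392 by translation level change and 262 by its change in monosomes.

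Both Lefty genes carry an 8mer, but in monosomes Lefty1 passed the test and Lefty2 did not. Their counts within each library are given as a description. Their coding sequences share 1014 of 1104 bases (91.8%), but of the 451 possible 50-base reads in the last 500 bases of the Lefty1 transcript 11 were also found in Lefty2, and none of those of the other members was shared with another gene. Reads were taken at 3′ ends, so counts do not grow with transcript length, but how well each 3′ end was primed was not tested, so shares and ratios between genes are compared between groups and not read as numbers of messages. Lefty1 as a share of the counts of both genes was 14.4, 16.6 and 13.8% in wild-type monosomes and 55.4, 64.9 and 69.3% in KO monosomes. In low polysomes the share was 7.67, 7.86 and 8.07% in wild-type and 44.9, 53.1 and 57.9% in KO cells, and in high polysomes it was 7.55, 8.24 and 6.92% in wild-type against 50.7, 56.5 and 61.1% in KO cells. The means were 7.57 ± 0.662% and 56.1 ± 5.20% in high polysomes (SD, n = 3), and the groups did not overlap in any fraction. The changes of both genes given above fix the direction of this difference, so it is no separate evidence.

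The same counts gave Lefty counts per Nodal count. In monosomes there were 3.77, 4.93 and 4.84 Lefty counts per Nodal count in wild-type and 4.95, 6.22 and 6.13 in KO cells. In low polysomes the ratios were 6.14, 7.43 and 5.34 in wild-type against 6.14, 6.57 and 7.11 in KO cells, which overlapped (exact two-sided permutation test of the log values, p = 0.7). In high polysomes they were 7.88, 7.97 and 7.66 against 10.6, 10.7 and 12.2, so that every KO library was above every wild-type library. The same exact test gave p = 0.1, as in monosomes, the smallest that 3 against 3 allows. It was 0.12 adjusted over 6 tests that include the shares. The share tests all gave 0.1 as well, with a direction already fixed, so the adjusted value rests partly on them. These ratios use counts already tested above and are no separate evidence.

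**Figure D3:**
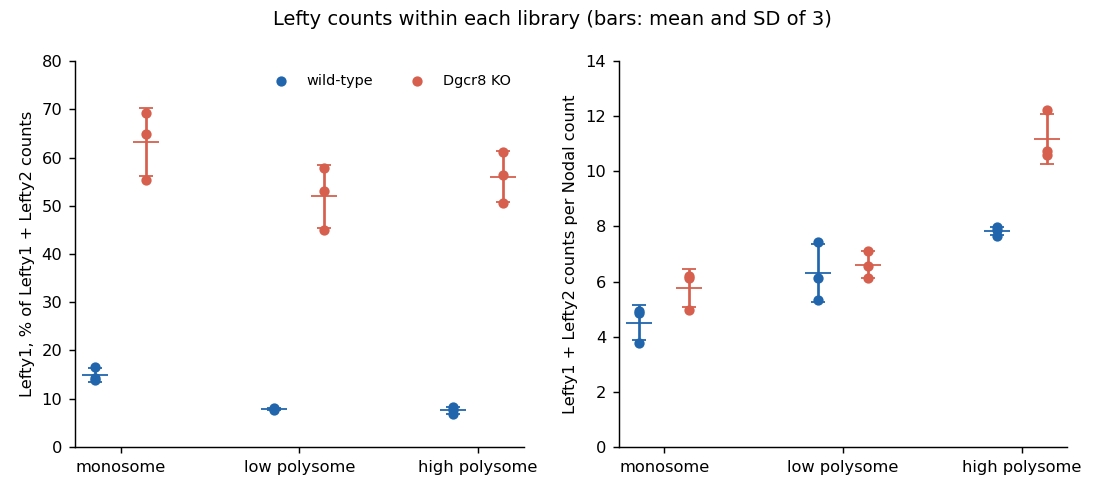
The left panel shows Lefty1 as percent of Lefty1 and Lefty2 counts and the right panel the Lefty counts per Nodal count, by fraction, with 1 point per library, wild-type in blue and Dgcr8 KO in red, and bars for the mean and SD of 3. On the left the wild-type points lie between 6.92 and 16.6% and the KO points between 44.9 and 69.3%, while on the right the genotypes overlap in low polysomes and are apart in the other fractions.

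Tdgf1 (ENSMUSG00000032494, chromosome 9, 110939603 to 110946158, minus strand) encodes the Nodal co-receptor and is a marker of pluripotent cells. Tdgf1 was measured in wild-type gradients at 689, 659 and 557 CPM in monosomes, 839, 789 and 762 CPM in low polysomes and 839.8, 898 and 754 CPM in high polysomes. It was measured in Dgcr8 KO gradients at 826, 571 and 542 CPM in monosomes, 843, 813 and 742 CPM in low polysomes and 597, 529.7 and 362 CPM in high polysomes. The genotypes overlapped in monosomes and low polysomes, where the log2 changes were both 0.00 (adjusted p = 0.984 and 0.985), and KO libraries were lower in high polysomes. There Tdgf1 was 1.71-fold lower (log2 change -0.78, SE 0.14, adjusted p = 6.34e-06), and its translation level fell (log2 change -0.77, SE 0.20, adjusted p = 0.00285), from 0.28, 0.45 and 0.44 in the wild-type to -0.47, -0.11 and -0.58 in the KO gradients on the log2 scale. Tdgf1 has a coding sequence of 513 bases, where the median of tested protein-coding genes was 1359, and the trend of translation level change over coding length was -0.75 at that length. With this trend removed the change was -0.02 (adjusted p = 0.958), and the call was lost.

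Acvr2b (ENSMUSG00000061393, chromosome 9, 119402118 to 119434995, plus strand) encodes a type II activin receptor that Nodal uses. Acvr2b was seen in wild-type gradients at 65.6, 78.7 and 57.5 CPM in monosomes, 148, 147 and 147 CPM in low polysomes and 113, 112 and 126 CPM in high polysomes. It was seen in Dgcr8 KO gradients at 48.4, 57.9 and 69.3 CPM in monosomes, 139, 169 and 175 CPM in low polysomes and 135, 168 and 211 CPM in high polysomes. Both genotypes had more of it in either polysome fraction than in monosomes, and the KO libraries were above wild-type in high polysomes but not elsewhere. The change was -0.21 in monosomes (adjusted p = 0.394), 0.12 in low polysomes (adjusted p = 0.477) and 0.53 in high polysomes (SE 0.14, adjusted p = 0.00105). Its translation level rose (log2 change 0.74, SE 0.23, adjusted p = 0.0124). That call was lost with total counts (0.41, adjusted p = 0.17), with all genes that had a count (0.70, adjusted p = 0.0915), with the coding length trend removed (0.62, adjusted p = 0.056) and without wild-type gradient 2 (0.55, adjusted p = 0.141).

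Smad2 and Smad3 encode the SMADs that the receptors phosphorylate, and Smad4 encodes their common partner. Smad2 (ENSMUSG00000024563, chromosome 18, 76241580 to 76310963, plus strand) was present in wild-type gradients at 14.7, 23.2 and 21.2 CPM in monosomes, 16.6, 9.76 and 15.1 CPM in low polysomes and 33.2, 24.5 and 20.7 CPM in high polysomes. It was present in Dgcr8 KO gradients at 11.7, 14.8 and 13.3 CPM in monosomes, 20.9, 17.3 and 19.4 CPM in low polysomes and 33.4, 19.9 and 25.97 CPM in high polysomes. These are 21 to 113 counts a library, and the genotypes overlapped in monosomes and high polysomes, while in low polysomes the lowest KO value was just above the highest wild-type value. Smad2 passed the test in no fraction (log2 change -0.53, 0.53 and 0.02 from the lightest to the heaviest, adjusted p = 0.161, 0.0513 and 0.931) nor in translation level, with a log2 change of 0.55 (SE 0.36, adjusted p = 0.261). Its 3′ UTR holds the 3 seed matches given above.

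Smad3 (ENSMUSG00000032402, chromosome 9, 63646767 to 63757994, minus strand) was detected in wild-type gradients at 12.1, 14.2 and 15.9 CPM in monosomes, 14.8, 13.7 and 11.1 CPM in low polysomes and 17.9, 22.3 and 21.02 CPM in high polysomes. It was detected in Dgcr8 KO gradients at 11.7, 20.2 and 18.4 CPM in monosomes, 25.2, 26.6 and 28.1 CPM in low polysomes and 25.1, 20.8 and 30.3 CPM in high polysomes. KO libraries lay above wild-type in low polysomes, where Smad3 was 2.03-fold higher (log2 change 1.02, SE 0.20, adjusted p = 4.47e-05), and overlapped with it in monosomes and high polysomes. The log2 change was 0.27 in monosomes and 0.31 in high polysomes (adjusted p = 0.485 and 0.148), and 0.04 for translation level (SE 0.34, adjusted p = 0.943).

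Smad4 (ENSMUSG00000024515, chromosome 18, 73639009 to 73703780, minus strand) was counted in wild-type gradients at 56.3, 50.98 and 53.05 CPM in monosomes, 51.5, 48.8 and 49.7 CPM in low polysomes and 90.1, 92.6 and 98.4 CPM in high polysomes. It was counted in Dgcr8 KO gradients at 65.6, 43.1 and 50.9 CPM in monosomes, 67.00, 54.2 and 71.5 CPM in low polysomes and 71.4, 63.7 and 69.6 CPM in high polysomes. KO libraries lay above wild-type in low polysomes and below it in high polysomes. The log2 change was 0.36 in low polysomes (SE 0.14, adjusted p = 0.0306) and -0.46 in high polysomes (SE 0.13, adjusted p = 0.00282), with -0.05 in monosomes (adjusted p = 0.838). The low polysome call was lost with DESeq2 (0.34, adjusted p = 0.0541), with 2 other settings and in 5 of the 6 fits that left out a gradient. Smad4 did not pass the test of translation level (log2 change -0.41, SE 0.22, adjusted p = 0.161), but with total counts it was lower (-0.74, adjusted p = 0.00694).

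Smad7 (ENSMUSG00000025880, chromosome 18, 75367529 to 75395935, plus strand) encodes an inhibitory SMAD that blocks the receptors and is itself induced by TGF-beta family signals. The gene was expressed in wild-type gradients at 155, 172 and 147 CPM in monosomes, 130.1, 164 and 129 CPM in low polysomes and 163, 142 and 124 CPM in high polysomes. It was expressed in Dgcr8 KO gradients at 115, 119 and 86.96 CPM in monosomes, 78.99, 91.6 and 81.4 CPM in low polysomes and 71.4, 62.4 and 57.9 CPM in high polysomes. In all 3 fractions every KO library was below every wild-type library, and the KO values became lower towards the heavy fractions. Smad7 was lower in KO monosomes (log2 change -0.58, SE 0.14, adjusted p = 0.00134), 1.67-fold lower in low polysomes (log2 change -0.74, SE 0.13, adjusted p = 1.23e-05) and 2.23-fold lower in high polysomes (log2 change -1.16, SE 0.14, adjusted p = 2.50e-09). By gradient, the log2 translation level was 0.07, -0.27 and -0.24 in wild-type and -0.68, -0.92 and -0.58 in KO cells, and it fell (log2 change -0.58, SE 0.20, adjusted p = 0.0263). Without wild-type gradient 1 (-0.47, adjusted p = 0.146) or KO gradient 2 (-0.51, adjusted p = 0.0838) that call was lost, whereas the falls within fractions kept theirs in every alternative that did not ask for a larger fold.

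Skil (ENSMUSG00000027660, chromosome 3, 31095058 to 31122577, plus strand) encodes SnoN, a corepressor that binds SMADs and is also a target of the pathway. Skil occurred in wild-type gradients at 33.5, 26.5 and 34.5 CPM in monosomes, 20.8, 25.4 and 29.2 CPM in low polysomes and 46.03, 52.3 and 49.04 CPM in high polysomes. It occurred in Dgcr8 KO gradients at 45.6, 40.8 and 48.6 CPM in monosomes, 33.2, 39.1 and 52.8 CPM in low polysomes and 54.9, 53.1 and 53.3 CPM in high polysomes. KO libraries were above wild-type in each fraction, but in high polysomes the lowest KO value of 53.1 CPM was close to the highest wild-type value of 52.3 CPM. Skil was 1.44-fold higher in monosomes (log2 change 0.52, SE 0.20, adjusted p = 0.0391) and 1.64-fold higher in low polysomes (log2 change 0.71, SE 0.17, adjusted p = 0.0005), and the change in high polysomes was 0.13 (adjusted p = 0.47). The monosome call was lost in 5 of the 6 fits that left out a gradient (adjusted p up to 0.158). Its translation level change was -0.39 (SE 0.25, adjusted p = 0.26), which became a fall with total counts (-0.72, adjusted p = 0.0274).

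Scaling by total counts moved the median log2 change of all genes by -0.33 for translation level and by 0.10, -0.03 and -0.22 in the 3 fractions from light to heavy. Every change here is given on the TMM scale. Of the members called in a fraction, all kept their call and direction with total counts. The translation level calls of Lefty1, Lefty2, Tdgf1 and Smad7 also did.

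Within wild-type cells, 7 of the 10 genes had a higher level in high polysomes than in monosomes and none a lower one (by limma, edgeR or DESeq2, and none at an unadjusted p under 0.05), where 26.0% of all genes were higher and 28.0% lower. The order by log2 translation level was Lefty2 (1.92), Nodal (0.98), Smad4 (0.81), Lefty1 (0.80), Acvr2b (0.79), Skil (0.65), Smad3 (0.54), Tdgf1 (0.39), Smad2 (0.38) and Smad7 (-0.16). The gradients of Lefty2 (1.78 to 2.13) did not overlap those of any other member, whereas neighbours from Nodal to Smad7 in this order overlapped. Smad3, Smad2 and Smad7 were the members not called (adjusted p = 0.0872, 0.222 and 0.357).

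In KO cells 7 members were higher in high polysomes and 2 were lower, against 32.2% and 35.5% of all genes. Lefty2 (3.03), Lefty1 (2.58), Nodal (1.80) and Acvr2b (1.53) led the order, Smad2 (0.93), Smad3 (0.58), Smad4 (0.40) and Skil (0.26, adjusted p = 0.142) followed, and Tdgf1 (-0.39) and Smad7 (-0.73) were below 0. Lefty2 ranked 11 and Lefty1 60 of 12851 genes by this ratio. The gradients of Lefty2 (2.83 to 3.15) lay above those of Lefty1 (2.56 to 2.64), and these above those of Nodal (1.59 to 2.05), whereas Nodal and Acvr2b (1.46 to 1.59) overlapped narrowly at 1.59. With an absolute log2 change over 1, 1 member was called in wild-type and 4 in KO cells, where 30.1% and 43.0% of all genes were. Several of these calls were lost under other settings. In wild-type cells Lefty1 lost its call with all genes that had a count (0.90, adjusted p = 0.131), Tdgf1 with a filter at 10 CPM (0.30, adjusted p = 0.0734) and with each of the 3 wild-type gradients left out in turn (0.36 to 0.43, adjusted p = 0.0556 to 0.0951), and Skil without wild-type gradient 2 (0.53, adjusted p = 0.0727). In KO cells total counts took the calls of Smad3 (0.34, adjusted p = 0.15) and Smad4 (0.15, adjusted p = 0.36), and Smad4 also lost its call at 10 CPM (0.29, adjusted p = 0.0684) and without KO gradient 2 (0.33, adjusted p = 0.0699). Without KO gradient 3, Tdgf1 (-0.28, adjusted p = 0.0971), Smad3 (0.50, adjusted p = 0.111) and Smad4 (0.37, adjusted p = 0.0849) were not called, nor was Smad3 without KO gradient 1 (0.40, adjusted p = 0.126).

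**Figure D4:**
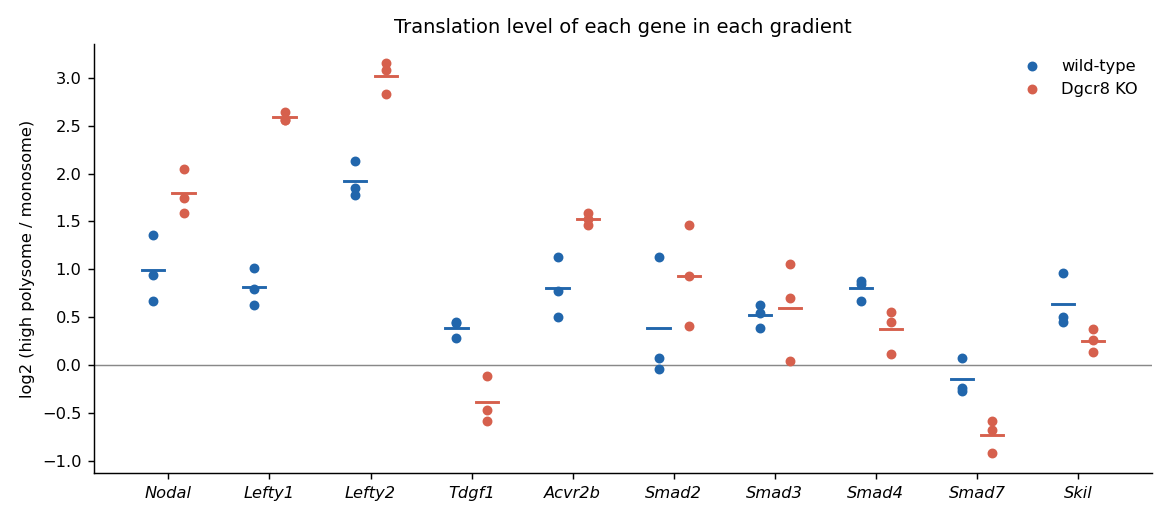
For each of the 10 genes, points show the log2 ratio of high polysome to monosome CPM in each of 3 wild-type (blue) and 3 Dgcr8 KO (red) gradients, with lines at the means. Red points lie above blue points for Nodal, Lefty1, Lefty2 and Acvr2b and below them for Tdgf1, Smad4, Smad7 and Skil, and the genotypes overlap for Smad2 and Smad3. Smad4 and Skil were not called for translation level, and the share of all genes without overlap was not counted.

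The low polysome fraction allowed each step of the gradient to be tested, but the steps were not tested against each other. From monosomes to low polysomes, 3 members rose in KO cells relative to wild-type and none fell (by limma, edgeR or DESeq2, and none at an unadjusted p under 0.05), against 3.90% and 7.49% of all genes, and none of the members but 5.03% of all genes passed with a log2 change over 1. These were Lefty1 (log2 change 0.98, SE 0.26, adjusted p = 0.00889), Nodal (log2 change 0.61, SE 0.20, adjusted p = 0.0402) and Lefty2 (log2 change 0.60, SE 0.18, adjusted p = 0.0207). The Lefty1 ratio of low polysomes to monosomes was 0.21, -0.21 and 0.05 in wild-type and 1.02, 0.74 and 1.15 in KO gradients on the log2 scale, so it was near 0 in the former only. With total counts Nodal (0.49, adjusted p = 0.111) and Lefty2 (0.47, adjusted p = 0.0673) lost their calls. Nodal also lost its call with DESeq2 size factors (0.59, adjusted p = 0.0539). So it did without wild-type gradient 1 (0.59, adjusted p = 0.0943) or KO gradient 2 (0.58, adjusted p = 0.0665). Lefty2 lost its call without wild-type gradient 3 (0.53, adjusted p = 0.0782). With all genes that had a count, Lefty1, Nodal and Lefty2 all lost theirs (adjusted p = 0.375, 0.137 and 0.0903). Without wild-type gradient 2 none of the 10 was called, and without KO gradient 3 a single member was. Smad2 had the largest estimate (1.06, adjusted p = 0.0599). It was called with the gradient as a block (1.01, adjusted p = 0.0393), with edgeR (1.05, adjusted p = 0.0444) and with the compared groups alone (1.07, adjusted p = 0.0383). Smad2 was also called without wild-type gradient 1 (1.41, adjusted p = 0.0214), and in no other setting.

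From low to high polysomes, 2 members rose (Lefty1 and Lefty2) and 2 fell (Tdgf1 and Smad4), against 7.52% and 10.3% of all genes, and again none of the members passed with a log2 change over 1, as 5.18% of all genes did. The change was 0.81 for Lefty1 (SE 0.23, adjusted p = 0.0123) and 0.51 for Lefty2 (SE 0.16, adjusted p = 0.0268). It was -0.78 for Tdgf1 (SE 0.19, adjusted p = 0.00369) and -0.82 for Smad4 (SE 0.19, adjusted p = 0.00243). The Smad4 ratio of high to low polysomes was 0.80, 0.91 and 0.98 in wild-type and 0.09, 0.23 and -0.04 in KO gradients, and that of Nodal was 0.26, 0.67 and 0.68 and 0.58, 1.10 and 0.55 without a call (adjusted p = 0.494). Lefty1 and Lefty2 were thus the members called as rising at both steps in the main fit. Without wild-type gradient 1, Lefty1 (0.71, adjusted p = 0.0877) and Lefty2 (0.38, adjusted p = 0.193) both lost their calls from low to high polysomes. The 2 members still called were the falls, Tdgf1 and Smad4. Without wild-type gradient 2, 2 members were called, and Lefty2 (0.51, adjusted p = 0.131) and Tdgf1 (-0.67, adjusted p = 0.0739) were not. With total counts Lefty2 lost its call (0.31, adjusted p = 0.164). Lefty2 also lost it with the compared groups alone (0.50, adjusted p = 0.0576) and without KO gradient 2 (0.40, adjusted p = 0.0981). Lefty1 lost its call with all genes that had a count (0.79, adjusted p = 0.363). Total counts added falls of Smad3 (-0.90, adjusted p = 0.0146), Smad7 (-0.61, adjusted p = 0.0195) and Skil (-0.79, adjusted p = 0.0104).

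Other genes of the pathway were taken from lists of ligands, antagonists, co-receptors and convertases, receptors, inhibitors, corepressors, SMAD partners, ubiquitin and phosphatase regulators, and targets. These hold 52 genes beside the 10, of which 43 were tested. In translation level 9 of the 43 rose and 7 fell, where 1671 of all 12851 genes rose and 15.2% fell. In KO monosomes 10 were higher and 1 lower, against 17.5% and 19.9% of all genes. In low polysomes 18 were higher and 7 lower, against 26.1% and 26.2%, and in high polysomes 18 were higher and 6 lower, against 29.1% and 31.6%. The lists too were chosen with earlier results of these data known, so these counts are a description. Those below hold 3 to 8 tested genes each, so nothing particular to a list is read from its count.

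Among 5 other ligands tested, 3 rose in translation level, where 1671 of all 12851 genes did, and 4 were higher in high polysomes, where 29.1% of all genes were. Gdf3, a ligand that acts with Nodal, was at 368 ± 35.8 CPM in wild-type and 1006 ± 97.3 CPM in KO high polysomes (SD, n = 3) and rose in translation level, with a log2 change of 0.87 (SE 0.17, adjusted p = 0.00014). Gdf11 rose more (log2 change 1.93, SE 0.52, adjusted p = 0.00431) from low counts, with 2.73, 2.88 and 1.27 CPM in wild-type and 17.9, 18.02 and 15.6 CPM in KO high polysomes. Inhbb, an activin subunit, also rose (log2 change 1.34, SE 0.32, adjusted p = 0.00134) while its monosome change was 0.01 (adjusted p = 0.97). Of the 3 antagonists tested beside the Lefty genes, none was called in monosomes or for translation level (by limma, edgeR or DESeq2, and none at an unadjusted p under 0.05). All 3 were called in low polysomes, Fst as higher (log2 change 0.86, SE 0.21, adjusted p = 0.000585) and Dand5 (log2 change -2.35, SE 0.49, adjusted p = 0.000108) and Fstl3 (log2 change -0.74, SE 0.31, adjusted p = 0.0446) as lower, and Dand5 was also lower in high polysomes (log2 change -1.68, SE 0.52, adjusted p = 0.00572). Dand5 and Fstl3 had means of 7.89 and 15.1 counts a library. Dand5 held at most 4 counts in KO low and 5 in KO high polysome libraries, near the limit of 3 counts. Its falls therefore rest on few counts, and their size is uncertain. Cer1, another Nodal antagonist, was at 0 in every library.

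Of 3 other co-receptor and convertase genes, Pcsk6, which encodes a protease that cleaves the Nodal precursor, rose in translation level, with a log2 change of 0.94 (SE 0.18, adjusted p = 0.000112). All 5 other receptors tested were higher in KO low and in KO high polysomes, where 26.1% and 29.1% of all genes were, limma called none in monosomes (1 had an unadjusted p under 0.05, edgeR called 1 and DESeq2 none), and 1 rose in translation level. The largest high polysome change among them with a mean of 20 or more counts was that of Tgfbr3, at 7.57 ± 1.05 CPM against 26.5 ± 4.74 CPM (SD, n = 3, log2 change 1.75, SE 0.24, adjusted p = 5.95e-08).

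Among negative regulators, 3 of 4 receptor-level inhibitors and inhibitory SMADs fell in translation level, and so did 2 of 3 corepressors, against 15.2% of all genes. Ski rose (log2 change 0.55, SE 0.18, adjusted p = 0.0165). In KO high polysomes 1 of the 4 inhibitors and 2 of the 3 corepressors were lower, where 31.6% of all genes were. Pmepa1, whose ratio fell, was higher in monosomes (log2 change 0.74, adjusted p = 2.29e-06) and not called in high polysomes (0.17, adjusted p = 0.213). Bambi (-0.35, adjusted p = 0.0771) and Ski (-0.02, adjusted p = 0.908) were not called in high polysomes either. Fkbp1a, which encodes a protein that holds type I receptors inactive, was at 431 ± 13.8 CPM in wild-type and 202 ± 13.7 CPM in KO high polysomes (SD, n = 3) and fell in translation level, with a log2 change of -1.29 (SE 0.16, adjusted p = 5.99e-08). Tgif1 and Tgif2 encode corepressors that bind SMADs. The translation level of Tgif1 fell (log2 change -0.87, adjusted p = 1.86e-04), and Tgif2 was lower in low (log2 change -0.50) and high polysomes (log2 change -0.94, SE 0.14, adjusted p = 1.74e-07). Ski, the paralogue of Skil, was instead lower in monosomes (log2 change -0.57, SE 0.14, adjusted p = 0.00096).

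Among 6 SMAD partners, 2 rose (Crebbp and Ep300) and 1 fell in translation level, where 28.2% of all genes were called in either direction. Crebbp, which encodes a coactivator that SMADs recruit, rose (log2 change 1.25, SE 0.22, adjusted p = 3.06e-05), and Drap1, which encodes a binding partner of Foxh1 that dampens Nodal signalling, fell (log2 change -1.31, SE 0.20, adjusted p = 2.64e-06). Of the 8 ubiquitin and phosphatase regulators none was called for translation level by limma, edgeR or DESeq2 (1 had an unadjusted p under 0.05), while Wwp1 (-0.60) and Ppm1a (-0.36) were lower in low polysomes (adjusted p = 0.00304 and 0.0175). Ppm1a was also lower in high polysomes (log2 change -0.48, SE 0.13, adjusted p = 0.00169). In the same list Usp9x was higher in all 3 fractions (log2 change 0.73, 0.68 and 0.55, adjusted p = 0.0365, 0.00108 and 0.00378) and Nedd4l in high polysomes (log2 change 0.48, SE 0.15, adjusted p = 0.0059). Several of these calls move with coding length. With the coding length trend removed, all 3 falls among the inhibitors lost their call, namely Fkbp1a (-0.34, adjusted p = 0.145), Pmepa1 (-0.20, adjusted p = 0.464) and Bambi (-0.40, adjusted p = 0.335). So did both rises among the SMAD partners, Crebbp (0.56, adjusted p = 0.0788) and Ep300 (0.13, adjusted p = 0.744). Pcsk6 (0.48, adjusted p = 0.0654), Ski (0.22, adjusted p = 0.445) and Tgif2 (-0.13, adjusted p = 0.718) also lost theirs. So did Acvr1b, the receptor whose translation level rose (0.70, adjusted p = 0.0225 before and 0.59, adjusted p = 0.0817 after removal). Gdf3, Gdf11, Inhbb, Drap1 and Tgif1 kept their calls, Tgif1 narrowly (-0.50, adjusted p = 0.0479).

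Of 6 target genes tested, 3 were higher in KO monosomes, where 17.5% of all genes were, and none was lower in any fraction, where 19.9%, 26.2% and 31.6% of all genes were (by limma, edgeR or DESeq2, and none at an unadjusted p under 0.05). Ccnd2 was higher in all 3 fractions (log2 change 1.90, 3.51 and 2.62), with 1 KO low polysome library at 143 CPM and the others at 41.01 and 46.8 CPM. Foxa2, Mixl1 and T had too few counts to be tested, so changes in these targets were not detectable at this depth.

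**Figure D5:**
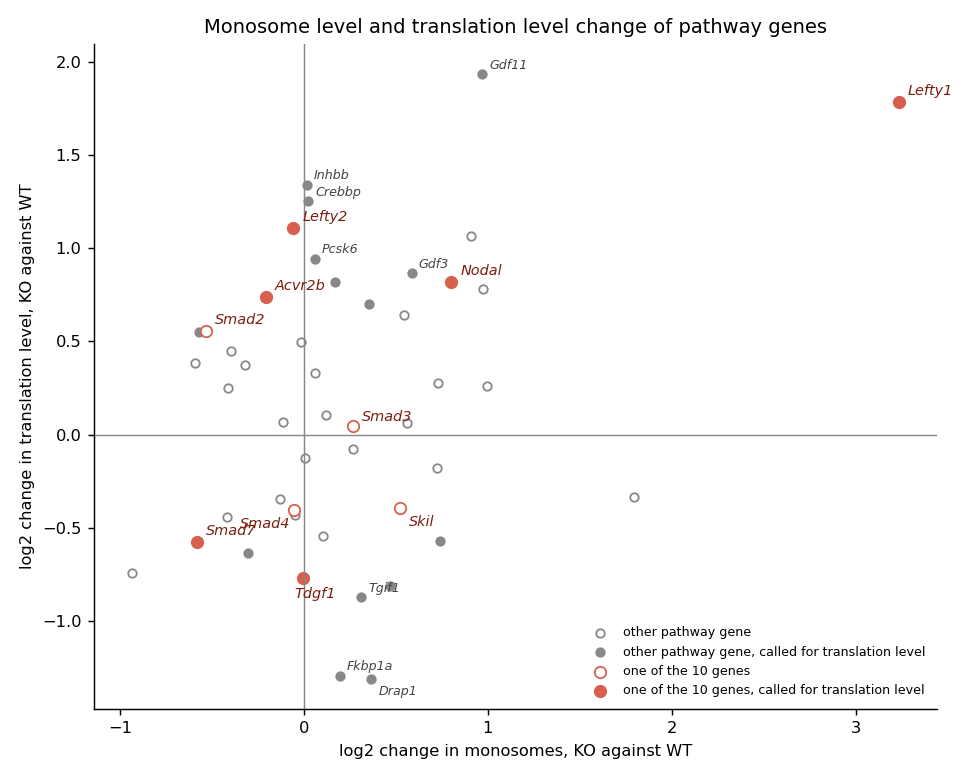
Each point is 1 gene, placed by its log2 change in monosomes (horizontal) and in translation level (vertical), KO against wild-type, with the 10 genes in red and the other tested pathway genes, apart from the target genes, in grey, filled where the translation level was called. Lefty1 stands far right and high (3.23 and 1.78), and Lefty2, Inhbb and Crebbp lie near 0 in monosomes (-0.06, 0.01 and 0.02) but above 0 in translation level.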

How the data were processed

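Polysome fractions were sequenced from mRNA 3′ ends in 18 libraries (2 genotypes, 3 fractions and 3 replicates). The values are raw counts per gene that the authors deposited, made by trimming with cutadapt 1.14, aligning to mm10 with STAR 2.5.3a and counting unique alignments by strand with featureCounts 1.5.3 (strand setting 1) on GENCODE M14 without rRNA genes. The 92 spike-in entries were left out. Libraries held 1151649 to 4984833 counts, and replicates differed by more than sampling noise (chi-square per gene 1.92 to 7.48). Symbols came from a table of gene names and transcripts from GENCODE M21, each matching 51274 of 51467 genes.

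Genes with 3 CPM in at least 3 libraries were fitted over all 6 groups with limma-voom (limma 3.58.1, edgeR 4.0.16 TMM factors, R 4.3.3) and Benjamini-Hochberg adjustment over 12851 genes, and the script was tested on simulated data. Log2 ratios of single gradients used a prior count of 2. Alternatives were edgeR's quasi-likelihood test, DESeq2 1.42.0, its size factors, total counts, other filters, fewer groups, single gradients left out, a replicate block, removal of the coding length trend (loess) and a log2 change over 1. The fractions of a gradient come from the same lysate, and their deviations from the group means correlated at 0.03 to 0.14 (median 0.062, 18 pairs). The members, lists and tests were chosen with earlier results of these data known. All 10 members and Dgcr8 are named, and of the other listed genes up to 6 called in each direction per comparison, by largest change at a mean of 20 or more counts. Cer1, Foxa2, Mixl1 and T, which were not tested, are named for their role. Dand5, Fstl3, Fst, Acvr1b, Ep300, Pmepa1, Bambi, Usp9x and Nedd4l were chosen after their values were seen. Some genes that this rule names are not reported here.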

Additional observations from a re-analysis of the deposited data

Results flagged for a closer look

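These differences between genotypes in the same contrast of fractions passed the interaction test (limma, adjusted p under 0.05). The change from monosomes to high polysomes differed for Lefty1 (1.78 on the log2 scale), Lefty2 (1.11), Nodal (0.82), Acvr2b (0.74), Smad7 (-0.58) and Tdgf1 (-0.77). From monosomes to low polysomes it differed for Lefty1 (0.98), Nodal (0.61) and Lefty2 (0.60). From low to high polysomes it differed for Lefty1 (0.81), Lefty2 (0.51), Tdgf1 (-0.78) and Smad4 (-0.82). Entries for spike-in RNA, which no comparison used, held up to 56 counts in a library (13 to 56 over the 18 libraries), above the limit of 3 counts.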

How the results depend on the processing

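Of the single-gene results recomputed under the alternatives, 1078 kept their direction and side of the threshold, 89 lost a call, 15 gained one and 28 changed sign. No call changed sign. Lowest counts limit precision for Smad2 and Smad3, and the 2 genotypes are 1 line each, so line and genotype cannot be told apart. The causes of the differences below were not tested.

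Requiring an absolute log2 change over 1 left 2 members called for translation level, 1 for monosomes, 3 for low and 4 for high polysomes, 1 for high polysomes against monosomes in wild-type and 4 in KO cells, and 0 for either step of the gradient. The 3 calls from monosomes to low polysomes became 1 with total counts and 0 with all genes that had a count. With single gradients left out, members called numbered 5 to 6 for translation level, 3 to 4 for monosomes, 6 to 8 for low and 7 to 8 for high polysomes, 5 to 8 in wild-type, 6 to 9 in KO cells, 0 to 3 from monosomes to low polysomes and 2 to 5 from low to high polysomes.

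With the gradient as a replicate block, 6 members were called for translation level and 4 from monosomes to low polysomes, Smad2 being added. KO and wild-type gradients share only a number (same-number correlations 0.00018 to 0.102), and with that number as a block 4, 7 and 7 members were called for the fractions from light to heavy. The block turned the sign of Smad4 in monosomes (0.02).

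The changes that took either sign were not called. For translation level, Smad3 was -0.28 with total counts, -0.01 with the compared groups alone and -0.13 to 0.29 with gradients left out. In monosomes Lefty2 was 0.05 with total counts and -0.14 to 0.04 with gradients left out, and Smad4 was 0.05, 0.02 with all genes that had a count, and -0.19 to 0.16. In high polysomes Smad2 was -0.20 with total counts, -0.03 with the 10 CPM filter and -0.15 to 0.23 with gradients left out, and Skil was -0.09 with total counts. The wild-type translation level of Smad2 ranged from -0.02 to 0.61 with gradients left out. From monosomes to low polysomes Tdgf1 was -0.02 with DESeq2 size factors, with the 10 CPM filter and with edgeR, -0.12 with total counts, -0.01 with all genes that had a count, -0.05 with DESeq2 and -0.16 to 0.16 with gradients left out.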

Other observations

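The BMP arm of the family, which signals through other receptors and SMAD1, SMAD5 and SMAD9, was listed with 15 genes, of which 10 were tested. Of these, 4 were higher in KO monosomes, 5 in the low and 5 in the high polysomes, against 17.5%, 26.1% and 29.1% of all genes. Lower were 1 in monosomes and 2 in the heaviest fraction, against 19.9% and 31.6%. Limma, edgeR and DESeq2 called none as lower in low polysomes or as higher in translation level, and none had an unadjusted p under 0.05 there. The 2 whose translation level fell, where 15.2% of all genes did, were Id2 and Id3, which encode inhibitors of basic helix-loop-helix factors and are known BMP targets. Id2 rose in monosomes (log2 change 2.26, SE 0.16, adjusted p = 1.39e-14) and low polysomes (log2 change 1.35), and fell in translation level, with a log2 change of -1.90 (SE 0.22, adjusted p = 1.18e-08). Id3 rose in monosomes (log2 change 2.28, SE 0.27, adjusted p = 6.23e-09) and low polysomes (log2 change 1.92). It fell in translation level, with a log2 change of -1.48 (SE 0.34, adjusted p = 0.00101). Both genes were also higher in KO high polysomes (log2 change 0.36 for Id2 and 0.79 for Id3, adjusted p = 0.0283 and 0.00175). Their falls are thus in the ratio of high polysomes to monosomes and not in the high polysome level. With the coding length trend removed the fall was -1.02 for Id2 (adjusted p = 7.90e-04) and -0.57 for Id3 (adjusted p = 0.284). Acvr1, a type I receptor, was higher in monosomes (log2 change 1.01) and high polysomes (1.40). Bmp7, a ligand, was lower in both (-0.98 and -0.57), and Smad1 was lower in high polysomes (-0.82).

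Over the 18 libraries, which fall into 6 groups, Fetub (Pearson r = 0.983) and Atf6b (0.982) were among the 3 tested genes whose log2 CPM was most like that of Nodal. Those most like Lefty1 were Megf11 (0.993), Prss35 (0.992) and Lamp2 (0.992).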
